A study of Mus musculus with 12 samples.

Results

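The genes described here encode the mouse aminoacyl-tRNA synthetases, the enzymes that attach each amino acid to its transfer RNA, with the 3 scaffold proteins of the cytosolic multisynthetase complex. The list held every protein-coding gene of the mm10 RefSeq table with a synthetase symbol (such as *Farsb*, *Nars2* or *Tarsl2*), together with *Eprs*, *Aimp1*, *Aimp2* and *Eef1e1*, and came to 41 genes of 21473 protein-coding genes of known strand. By compartment, 19 genes encode cytosolic enzymes, 17 encode mitochondrial enzymes, 2 (*Gars* and *Kars*) supply both compartments and 3 encode scaffold proteins, and 11 of the 41 belong to the multisynthetase complex. The list was chosen by peak calls of the same samples, since synthetase genes had already been seen among the called promoters. The numbers, widths and ranks of peaks at these genes are therefore given as a description, with no test.

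The study immunoprecipitated chromatin carrying H3K36ac, acetylation of lysine 36 of histone H3, from spermatogonia-enriched cells of mouse testes at postnatal day 5 (Pnd 5). SIRT7 is a deacetylase that removes this mark. The comparison was between WT mice and *Sirt7*-/- mice, in which the gene is deleted in every tissue, of the same inbred strain, with 3 samples of 50000 cells per genotype, each from a different mouse and numbered as replicates 2, 3 and 4. The cells were enriched by differential plating, so that somatic cells of the testis may be present, and an input library was sequenced beside every ChIP library.

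Each codon is read correctly only if its transfer RNA carries the matching amino acid, and the synthetases set that match. Most amino acids have separate nuclear genes for the cytosolic and the mitochondrial enzyme, and the mitochondrial enzymes are imported after translation. Several cytosolic enzymes are held together in the multisynthetase complex by the scaffold proteins AIMP1, AIMP2 and EEF1E1. Cells raise transcription of many cytosolic synthetase genes through the factor ATF4 when amino acids run short, and histone acetylation at promoters generally accompanies open, transcribed chromatin.

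The values were 6 lists of broad H3K36ac peaks, 1 per sample, called against the sample's own input. The *Sirt7*-/- lists held between 2045 and 2840 peaks and the WT lists between 64 and 906, and every list had a median peak width between 277.5 and 480 bp. A gene was counted as called in a sample if any base of a peak lay within 3 kb of its start. The lists hold no read coverage and no depth, so the precision of a single call is unknown, and a gene without a peak is not shown to lack the mark. No list held a peak within 3 kb of the start of *Sirt7* itself, which does not test the deletion. Of 8 spermatogonial marker genes 5 were called, each in 1 *Sirt7*-/- and 0 WT lists. Of 12 markers of Sertoli, Leydig and peritubular cells and macrophages 1 (*Sox9*) was called, in *Sirt7*-/- replicate 3. Of all protein-coding starts, 19.3% were called in at least 1 *Sirt7*-/- list. At least 2 *Sirt7*-/- lists called 10.3% of all starts and 0 of these markers. Peaks do not measure expression, so these counts do not establish the makeup of the cells.

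More synthetase-list genes were called in the *Sirt7*-/- samples than in the WT samples, and in every sample their share was above that of all protein-coding starts. In *Sirt7*-/- replicates 2, 3 and 4, peaks lay at 12, 10 and 9 of the 41 genes, or 29.3, 24.4 and 22.0%, beside 13.2, 9.73 and 11.7% of all protein-coding starts. In WT replicates 2, 3 and 4, they lay at 8, 1 and 4 genes, or 19.5, 2.44 and 9.76%, beside 4.38, 0.317 and 1.35% of all starts. The lowest *Sirt7*-/- sample had 1 gene more than the highest WT sample, so that the genotypes did not overlap but came close to each other. On average 10.3 ± 1.53 genes (SD, n = 3) were called per *Sirt7*-/- sample and 4.33 ± 3.51 (SD, n = 3) per WT sample, which is 2.38 times as many. Over all protein-coding genes the means were 2482 ± 374 and 433 ± 454 starts (SD, n = 3 each), or 5.73 times as many (two-sided exact permutation test, p = 0.1, the lowest value possible with 3 samples per genotype). The excess of called genes was smaller in proportion at the synthetase list than over all starts, a difference that was not tested. The share of the list was between 1.87 and 2.51 times the background in the *Sirt7*-/- samples and between 4.45 and 7.70 times in the WT samples.

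**Figure D1:**
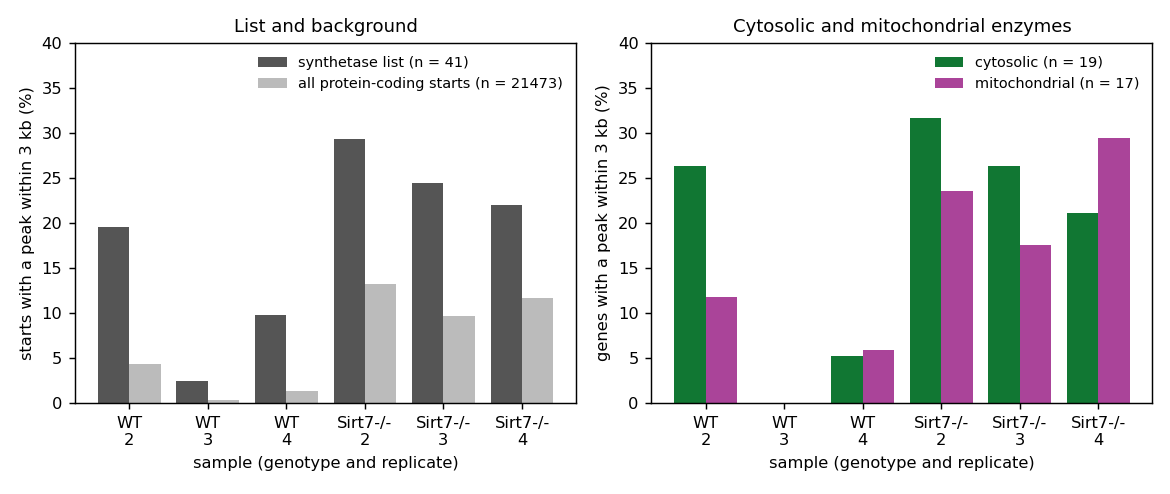
Share of genes with an H3K36ac peak within 3 kb of the start (%, vertical axis) in each of the 6 samples (horizontal axis). On the left, the 41 synthetase-list genes (dark bars) stand beside all 21473 protein-coding starts (light bars), and the dark bar is the taller in every sample. On the right, the 19 cytosolic (green) and 17 mitochondrial enzymes (purple) are shown, with no call for either class in WT replicate 3. The mitochondrial share is above the cytosolic share only in the replicates numbered 4, and in WT replicate 4 each class has 1 called gene.

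The number of peaks in a list bounded these counts. With only the 64 best peaks by -log10 q kept per sample, the length of the shortest list, both genotypes had a mean of 0.667 synthetase-list genes called. That is 1.63% of the list, beside 0.304% of all protein-coding starts in *Sirt7*-/- and 0.331% in WT samples. The calls were *Farsb* and *Fars2*, each in 1 *Sirt7*-/- sample, and *Dars* and *Aimp1*, each in 1 WT sample. With peaks of at least 500 bp only, the mean was 6.33 genes in *Sirt7*-/- and 1 in WT samples (15.4 and 2.44%, beside 5.56 and 0.609% of all starts). With a -log10 q of at least 2, it was 8 and 2.33 genes (19.5 and 5.69%, beside 7.59 and 1.13%).

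Of the 41 genes, 18 (43.9%) were called in at least 1 of the 6 lists, beside 19.7% of all protein-coding starts. At least 1 *Sirt7*-/- list called 16 genes (background 19.3%), and at least 1 WT list called 10 (background 5.12%). At least 2 *Sirt7*-/- lists called 9 genes (background 10.3%), and all 3 called 6, namely *Farsb*, *Ears2*, *Dars*, *Eprs*, *Yars* and *Fars2* (background 5.09%). Of these 6, *Farsb* and *Ears2* had no peak in any WT list (background 2.44%). That count of 2 rose to 5 without WT replicate 2, which alone of the WT samples called *Dars*, *Eprs* and *Yars*, and to 4 with a -log10 q of at least 2. In the other direction, *Mars1* and *Eef1e1* were called in WT and in no *Sirt7*-/- list (background 0.475%), and *Aimp1* was called in all 3 WT lists (background 0.102%).

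**Figure D2:**
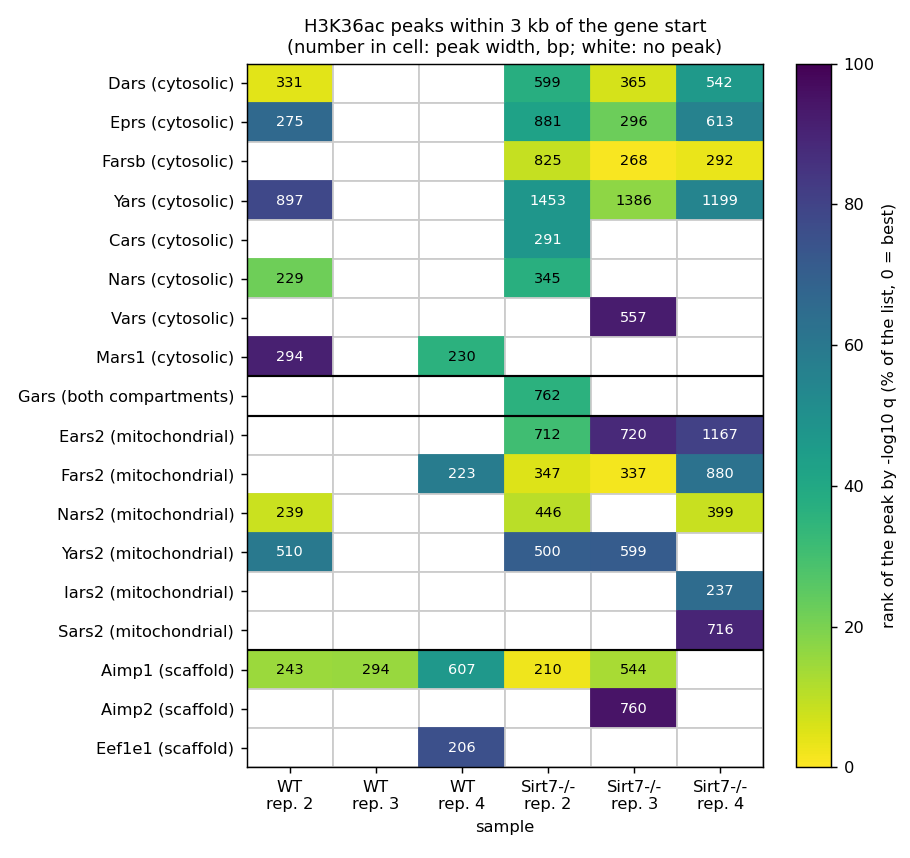
The 18 synthetase-list genes with at least 1 peak (rows, by class) in the 6 samples (columns), coloured by the rank of the peak within its own list as a percentage of the list (yellow is best, dark blue is weakest) with the peak width in bp in the cell, and white where no peak was called. *Farsb*, *Ears2*, *Dars*, *Eprs*, *Yars* and *Fars2* fill all 3 *Sirt7*-/- columns, *Aimp1* fills all 3 WT columns, and *Mars1* and *Eef1e1* are coloured in WT columns only.

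Cytosolic and mitochondrial enzymes were both among the called genes, and the difference between the classes was not tested. At least 1 list called 8 of 19 cytosolic genes (42.1%) and 6 of 17 mitochondrial genes (35.3%), and at least 2 *Sirt7*-/- lists called 4 of 19 (21.1%) and 4 of 17 (23.5%). All 3 *Sirt7*-/- lists called 4 cytosolic (21.1%) and 2 mitochondrial genes (11.8%), and at least 1 WT list called 5 (26.3%) and 3 (17.6%). In *Sirt7*-/- replicates 2, 3 and 4 the cytosolic counts were 6, 5 and 4 genes, and the mitochondrial counts were 4, 3 and 5. In WT replicates 2, 3 and 4 the cytosolic counts were 5, 0 and 1, and the mitochondrial counts were 2, 0 and 1. The order of the classes changed between samples, with the mitochondrial share the higher in *Sirt7*-/- replicate 4. In WT replicate 4 each class had 1 called gene, so the shares (5.26% cytosolic and 5.88% mitochondrial) differed only through class size. The mitochondrial count for at least 2 *Sirt7*-/- lists fell to 2 without *Sirt7*-/- replicate 2, with a -log10 q of at least 2 and with peaks of at least 500 bp. The cytosolic count in these settings was 4, 4 and 3. All 3 scaffold genes were called in at least 1 list, beside 19.7% of all protein-coding starts. The 11 genes of the multisynthetase complex include these 3, and 6 of the 11 were called. The other called genes of the complex were *Dars*, *Eprs* and *Mars1*.

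*Farsb*, which encodes the beta subunit of the cytosolic phenylalanyl-tRNA synthetase, had the best mean rank among the listed genes in the *Sirt7*-/- samples, although *Aimp1* and *Fars2* ranked above it in replicate 2. The gene lies on the minus strand of chromosome 1 and starts at 78488897. Its peak spanned 78488334-78489158 in *Sirt7*-/- replicate 2, 78488882-78489149 in replicate 3 and 78488898-78489189 in replicate 4. Those peaks had a -log10 q of 4.55, 7.63 and 5.98, a fold over input of 4.64, 7.41 and 5.96, and ranks of 252 of 2840, 20 of 2045 and 85 of 2591. All 3 peaks included or bordered the start and shared the stretch just upstream of it. No WT list had a peak there. *Farsa*, which encodes the alpha subunit of the same enzyme, was not called in any list. The nearest peak to the *Farsa* start lay 16421 bp away.

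The promoter of *Farsb* is shown because nearly all of it lay inside peaks of the *Sirt7*-/- samples only. It runs from 250 bases before to 50 bases after the start in the RefSeq promoter table of GRCm38.p6, the assembly of mm10, at chr1:78488848-78489147 on the minus strand. It is printed 5′ to 3′, and capitals mark the 266 bases covered by peaks of at least 2 of the 6 lists.
*Farsb*: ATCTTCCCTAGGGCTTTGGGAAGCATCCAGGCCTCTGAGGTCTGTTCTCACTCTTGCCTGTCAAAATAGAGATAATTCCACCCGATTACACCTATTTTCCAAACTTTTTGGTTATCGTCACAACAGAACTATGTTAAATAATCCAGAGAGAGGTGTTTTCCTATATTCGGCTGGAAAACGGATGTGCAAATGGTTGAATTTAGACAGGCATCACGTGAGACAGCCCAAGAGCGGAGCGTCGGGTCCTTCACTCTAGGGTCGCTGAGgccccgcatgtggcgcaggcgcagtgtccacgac
The lower-case end is the stretch just inside the gene. With 49.3% GC and 13 CpG dinucleotides, the window was below the median GC of the promoters on the list. It holds the E-box letters CACGTG at position -39.

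*Ears2*, the mitochondrial glutamyl-tRNA synthetase, was the other gene called in all 3 *Sirt7*-/- lists and no WT list. It starts at 122067094 on the minus strand of chromosome 7. The peaks spanned 122066929-122067640, 122066848-122067567 and 122066588-122067754 in *Sirt7*-/- replicates 2, 3 and 4. They were wide (712, 720 and 1167 bp) and low in their lists, with a -log10 q of 2.84, 1.70 and 1.64, a fold of 4.41, 4.11 and 3.65, and ranks of 876, 1806 and 2089. With a -log10 q of at least 2 only the peak in replicate 2 remained. *Ubfd1*, a protein-coding gene on the opposite strand, starts 1 bp upstream of *Ears2*, and all 3 peak midpoints were nearer to the *Ubfd1* start. The peak lists cannot assign such a peak to 1 gene of a divergent pair.

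*Dars*, *Eprs* and *Yars* had a peak in every *Sirt7*-/- sample and also in WT replicate 2. *Dars*, the cytosolic aspartyl-tRNA synthetase and a member of the multisynthetase complex, starts at 128417416 on the minus strand of chromosome 1. Its peaks spanned 128416736-128417334, 128416906-128417270 and 128416757-128417298 in *Sirt7*-/- replicates 2, 3 and 4, and 128416959-128417289 in WT replicate 2. Every one of them began between 82 and 146 bp inside the gene, so the same stretch was called in both genotypes. Their -log10 q was 2.56, 5.37 and 2.42 in the *Sirt7*-/- lists and 4.99 in WT replicate 2, and the fold was 3.82, 5.92, 4.25 and 4.95. The WT peak, at rank 41 of 906, stood higher within its list than the *Sirt7*-/- peaks at ranks 1063, 130 and 1203 did within theirs.

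*Eprs* encodes the bifunctional glutamyl-prolyl-tRNA synthetase of the complex. In the gene table it starts at 185361417 on the plus strand of chromosome 1, whereas the promoter table gives a start 1627 bp further in. Its peaks spanned 185362636-185363516, 185363194-185363489 and 185362694-185363306 in *Sirt7*-/- replicates 2, 3 and 4, and 185363194-185363468 in WT replicate 2. From the promoter-table start, the midpoints lay at 32, 298, -44 and 287 bp, so the peaks sat at that start rather than at the outermost one. Their -log10 q was 2.39, 3.73 and 2.17 in the *Sirt7*-/- lists and 1.79 in the WT list, with a fold of 4.24, 5.24, 4.15 and 4.39. The ranks were 1205, 463 and 1446 in the *Sirt7*-/- lists and 600 in the WT list.

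*Yars*, the cytosolic tyrosyl-tRNA synthetase, had the widest peaks of the list. It starts at 129189734 on the plus strand of chromosome 4. The peaks spanned 129188913-129190365 (1453 bp), 129188947-129190332 (1386 bp) and 129189198-129190396 (1199 bp) in *Sirt7*-/- replicates 2, 3 and 4, and 129189132-129190028 (897 bp) in WT replicate 2. All 4 covered the start of *Yars* and that of *S100pbp*, which lies 69 bp upstream on the opposite strand. Their -log10 q was 2.26, 4.13, 2.2 and 1.54, and their fold was 4.05, 5.69, 4.14 and 4.15. In rank they were 1345, 344 and 1416 in the *Sirt7*-/- lists and 710 in the WT list.

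*Fars2*, the mitochondrial phenylalanyl-tRNA synthetase, had a peak in every *Sirt7*-/- sample and also in WT replicate 4. It starts at 36117428 on the plus strand of chromosome 13, with *Lyrm4* starting 71 bp upstream on the opposite strand. Its peaks spanned 36117658-36118004, 36117633-36117969 and 36116946-36117825 in *Sirt7*-/- replicates 2, 3 and 4, and 36117626-36117848 in WT replicate 4. In replicates 2 and 3 the ranks were 150 and 36, with a -log10 q of 5.11 and 7.03 and a fold of 4.76 and 6.59. In replicate 4 the peak was wider, covered both starts and had a rank of 1613, a -log10 q of 2.02 and a fold of 4.03. The WT peak had a rank of 172 of 294, a -log10 q of 1.92 and a fold of 5.00. All 4 peaks overlapped one another just inside the gene.

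*Nars2* and *Yars2*, the mitochondrial asparaginyl- and tyrosyl-tRNA synthetases, were each called in 2 *Sirt7*-/- samples and in WT replicate 2. *Nars2* starts at 96950839 on the plus strand of chromosome 7, and the promoter table gives a start 688 bp further in. Its peaks spanned 96951530-96951975 and 96951596-96951994 in *Sirt7*-/- replicates 2 and 4, and 96951630-96951868 in WT replicate 2, all beyond the promoter-table start. Within their own lists they had a -log10 q of 4.36, 4.51 and 4.28, a fold of 5.28, 5.18 and 5.35, and ranks of 293 of 2840, 215 of 2591 and 74 of 906, each in the upper part of its list. *Yars2* starts at 16302965 on the plus strand of chromosome 16. Its peaks spanned 16303055-16303554 and 16303040-16303638 in *Sirt7*-/- replicates 2 and 3, and 16302950-16303459 in WT replicate 2. They were weak in their lists, with a -log10 q of 1.65, 2.07 and 1.94, a fold of 3.65, 4.48 and 4.26, and ranks of 2001, 1456 and 539.

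*Aimp1* encodes a scaffold protein of the multisynthetase complex that is also the precursor of a secreted cytokine, and it was the only gene on the list called in all 3 WT samples. It starts at 132684390 on the minus strand of chromosome 3. In WT replicates 2, 3 and 4 its peaks spanned 132683881-132684123, 132683886-132684179 and 132683994-132684600, and in *Sirt7*-/- replicates 2 and 3 132683897-132684106 and 132683845-132684388. *Sirt7*-/- replicate 4 had no peak there, although its list was far longer than any WT list. The -log10 q was 3.54, 3.05 and 2.17 in the WT lists and 6.31 and 4.44 in the *Sirt7*-/- lists, and the fold was 4.91, 5.28 and 4.85 in WT and 5.23 and 5.12 in *Sirt7*-/- samples. The WT ranks were 136 of 906, 10 of 64 and 137 of 294, and the *Sirt7*-/- ranks were 69 of 2840 and 270 of 2045. The start of *Tbck* lies on the opposite strand 277 bp inside *Aimp1*, and 4 of the 5 peak midpoints were nearer to it.

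The promoters of *Aimp1*, *Fars2* and *Dars* are shown because they differ in how much of the 300 bases the peaks covered. Capitals again mark bases covered by peaks of at least 2 of the 6 lists, and each sequence is the 5′ to 3′ strand of its gene in GRCm38.p6.
*Aimp1* (chr3:132683830-132684129, minus strand, at a second start 511 bp further in; 249 bases in capitals): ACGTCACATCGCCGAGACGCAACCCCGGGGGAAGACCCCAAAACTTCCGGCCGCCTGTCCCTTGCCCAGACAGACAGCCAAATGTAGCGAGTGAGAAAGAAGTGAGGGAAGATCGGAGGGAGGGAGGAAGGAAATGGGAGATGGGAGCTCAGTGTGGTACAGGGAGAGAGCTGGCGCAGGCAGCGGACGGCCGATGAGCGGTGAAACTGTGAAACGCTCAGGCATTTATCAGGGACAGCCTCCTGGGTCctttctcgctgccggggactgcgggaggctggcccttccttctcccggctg
*Fars2* (chr13:36117393-36117692, plus strand; 67 bases in capitals): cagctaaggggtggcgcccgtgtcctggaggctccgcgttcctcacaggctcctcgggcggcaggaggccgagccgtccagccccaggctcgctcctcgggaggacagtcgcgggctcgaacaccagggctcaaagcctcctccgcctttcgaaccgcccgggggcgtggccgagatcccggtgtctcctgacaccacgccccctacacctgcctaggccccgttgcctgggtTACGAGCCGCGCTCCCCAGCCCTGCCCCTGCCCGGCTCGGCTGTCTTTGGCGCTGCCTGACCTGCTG
*Dars* (chr1:128417367-128417666, minus strand; 0 bases in capitals): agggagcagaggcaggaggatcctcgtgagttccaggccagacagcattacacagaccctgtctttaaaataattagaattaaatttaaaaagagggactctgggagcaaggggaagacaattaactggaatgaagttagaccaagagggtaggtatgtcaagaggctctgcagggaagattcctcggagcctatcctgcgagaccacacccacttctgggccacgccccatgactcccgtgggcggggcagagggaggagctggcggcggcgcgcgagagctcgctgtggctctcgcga
In the printed *Aimp1* window, which also holds the start of *Tbck*, some bases were covered in 5 of the 6 lists, across both genotypes. The *Aimp1* window at the gene-table start is not printed. It had 48 bases covered by peaks of at least 2 lists, and at most 2 lists at a base. In *Fars2*, whose window is built on the promoter-table start 215 bp inside the gene-table start, the capitals begin 198 bp from the gene-table start and run on into the gene, with up to 4 lists at a base. In *Dars* every peak began further inside the gene than the printed window reaches. *Fars2* had the highest GC of these, at 71.7% with 28 CpG dinucleotides, and *Dars* had 55.7% with 14.

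*Mars1* and *Eef1e1*, whose protein products are partners in the multisynthetase complex, were called in WT samples only. *Mars1*, the cytosolic methionyl-tRNA synthetase, starts at 127311786 on the minus strand of chromosome 10. Its peaks spanned 127311282-127311575 in WT replicate 2 and 127311371-127311600 in WT replicate 4. They had a -log10 q of 1.33 and 2.45, a fold of 3.96 and 5.02, and ranks of 827 of 906 and 106 of 294. *Eef1e1* starts at 38659028 on the minus strand of chromosome 13, and its single peak, 38658584-38658789 in WT replicate 4, had a -log10 q of 1.65, a fold of 4.66 and a rank of 222 of 294. It was the narrowest peak at any gene of the list, at 206 bp. These 3 peaks therefore included weak ones near the end of their lists.

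*Nars*, the cytosolic asparaginyl-tRNA synthetase, was called in 1 sample of each genotype. It starts at 64516515 on the minus strand of chromosome 18. The peak spanned 64516071-64516415 in *Sirt7*-/- replicate 2 (-log10 q 2.58, fold 4.45, rank 1044) and 64516109-64516337 in WT replicate 2 (-log10 q 3.16, fold 5.10, rank 198). The WT peak lay inside the *Sirt7*-/- peak, and 345 bp against 229 bp was the difference in their widths.

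The other 6 called genes had a peak in 1 *Sirt7*-/- list each. *Gars*, which charges glycine in both compartments, and *Cars*, the cytosolic cysteinyl enzyme, were called in replicate 2. *Vars*, the cytosolic valyl enzyme, and *Aimp2*, a scaffold protein, were called in replicate 3, and the mitochondrial isoleucyl and seryl enzymes *Iars2* and *Sars2* were called in replicate 4. Their -log10 q lay between 1.47 (*Sars2*) and 2.6 (*Gars*), and the best rank was that of *Gars*, at 36.2% of its list. *Iars2*, *Sars2*, *Vars* and *Aimp2* each have another protein-coding start within 3 kb on the opposite strand, those of *Bpnt1*, *Mrps12*, *D17H6S56E-5* and *Pms2*.

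No list held a peak at the other 23 genes. These were *Kars*, the 11 cytosolic genes *Aars*, *Farsa*, *Hars*, *Iars*, *Lars*, *Qars*, *Rars*, *Sars*, *Tars*, *Tarsl2* and *Wars*, and 11 mitochondrial genes, among them *Aars2*, *Cars2*, *Hars2*, *Lars2* and *Mars2*. *Hars* and *Hars2* start 3 bp apart on opposite strands and so count as 1 promoter. At the limit of the window, the called genes with the most distant nearest peak were *Eprs* (1219 bp), *Nars2* (691 bp) and *Vars* (274 bp), and the nearest uncalled genes were *Cars2* (4748 bp) and *Aars* (6008 bp). The call for *Aars*, the cytosolic alanyl enzyme, depended on the start used and is described because its values were seen to differ. The promoter table places the *Aars* start 6064 bp further into the gene. At that start peaks were called in *Sirt7*-/- replicate 2, 111034009-111034260 on chromosome 8 with a rank of 1926 and a -log10 q of 1.71, and in *Sirt7*-/- replicate 4, 111033786-111034162 with a rank of 153 and a -log10 q of 5.10. No WT list had a peak there.

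The 44 peaks at the list, 31 in *Sirt7*-/- and 13 in WT samples, lay mostly just inside the genes. The midpoint was downstream of the start in 33 of the 44, and 14 covered the start. The median midpoint was 360.0, 301 and 63 bp downstream in *Sirt7*-/- replicates 2, 3 and 4 and 325, 358 and 304 bp in WT replicates 2, 3 and 4. These medians rest on 12, 10 and 9 peaks in the *Sirt7*-/- replicates and on 8, 1 and 4 in the WT replicates. The genes behind them differ between samples, so a test on them does not compare position at the same genes. Position was not used to choose the genes, and the mean of the *Sirt7*-/- medians (241 ± 157 bp, SD, n = 3) differed from that of the WT medians (329 ± 27.2 bp, SD, n = 3) by less than the spread among *Sirt7*-/- samples (two-sided exact permutation test, p = 0.5). Without *Sirt7*-/- replicate 4 the difference changed from -87.7 to 1.58 bp. For all promoter peaks the medians were between 300.0 and 340.0 bp in the 6 samples. Of the 44 midpoints, 32 were nearer to the start of the listed gene than to any other protein-coding start. The remaining 12 were at *Yars*, *Ears2*, *Fars2*, *Sars2* and *Aimp1*, each of which has a neighbouring start.

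**Figure D3:**
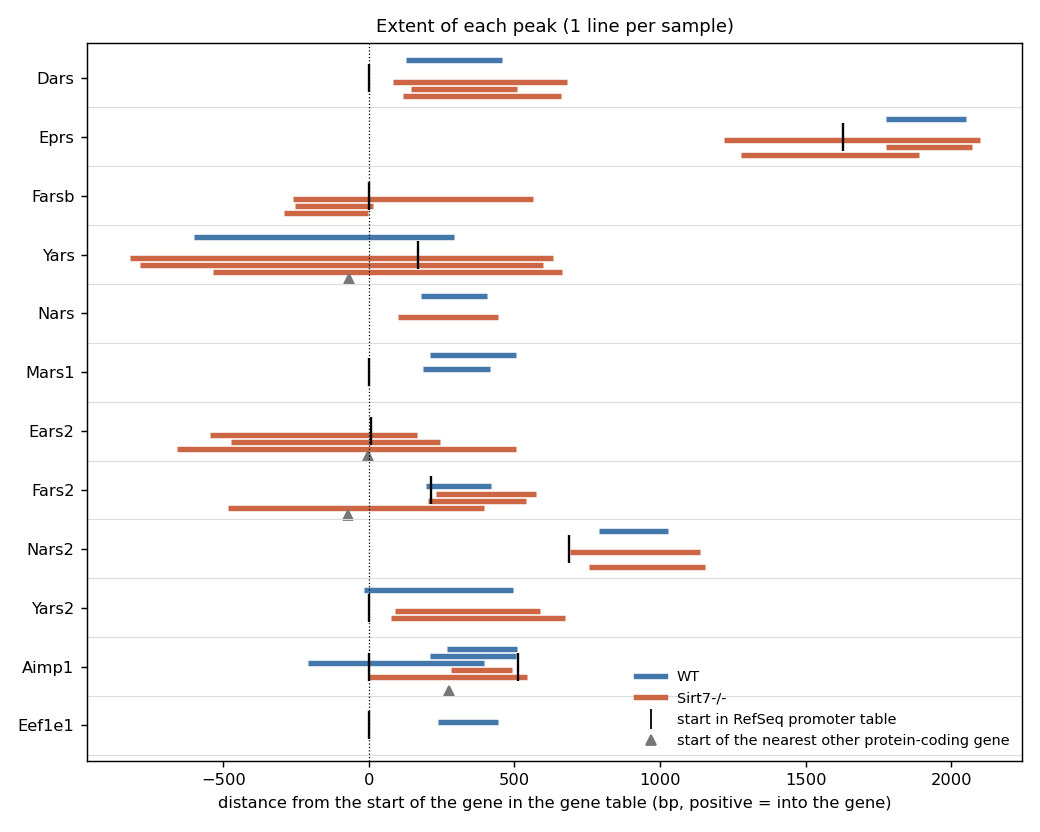
Extent of each peak as a line from its first to its last base, in bp from the start of the gene in the gene table (horizontal axis, positive into the gene), for the 12 genes called in all 3 *Sirt7*-/- lists or in any WT list, with WT samples in blue and *Sirt7*-/- samples in orange. Black ticks are starts in the RefSeq promoter table and grey triangles are the nearest other protein-coding start within 3 kb, and at *Eprs* and *Nars2* the peaks lie at or just beyond the tick, 1627 and 688 bp from the gene-table start.

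At 6 of the 8 genes called in both genotypes (*Dars*, *Eprs*, *Yars*, *Fars2*, *Nars2* and *Nars*), the WT peak was narrower than every *Sirt7*-/- peak. *Yars2*, with 510 bp in WT against 500 and 599 bp, and *Aimp1*, with 243 to 607 bp in WT against 210 and 544 bp, were the exceptions. The median width at the list was 550, 550 and 613 bp in *Sirt7*-/- replicates 2, 3 and 4 and 284, 294 and 226 bp in WT replicates 2, 3 and 4. All promoter peaks moved in the same direction, with medians of 491, 457 and 468 bp in *Sirt7*-/- samples and 376, 272 and 300.0 bp in WT samples.

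**Figure D4:**
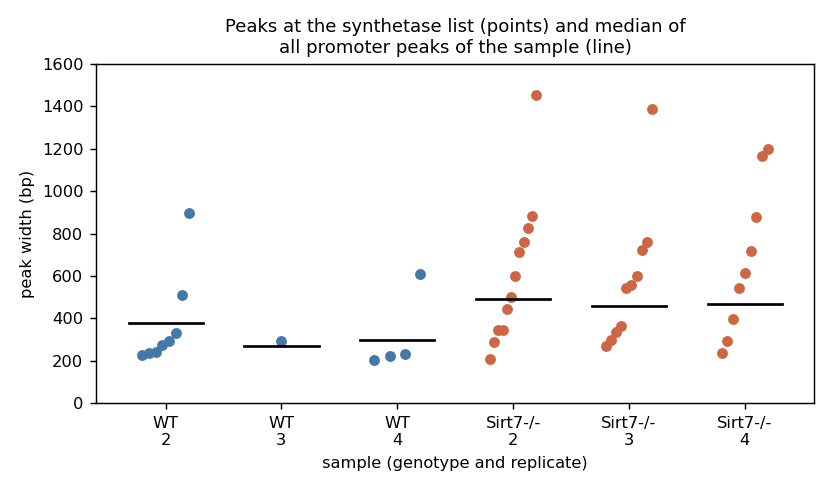
Width in bp (vertical axis, from 0) of each peak at a synthetase-list gene (points, WT in blue and *Sirt7*-/- in orange) in the 6 samples, with the median of all promoter peaks of the sample as a black line. The points spread from 206 to 1453 bp, and the *Sirt7*-/- lines (457 to 491 bp) lie above the WT lines (272 to 376 bp).

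Genes with a neighbouring start were called more often, both on the list and elsewhere. Among the 14 listed genes with another protein-coding start within 3 kb, 8 (57.1%) were called in at least 1 list, beside 38.5% of all such genes. Among the 27 without one, 10 (37.0%) were called, beside 16.6%. The list was above the background in both strata, but it was chosen by peak calls of these samples, so this excess was not tested. The 10 called genes with no neighbour included *Farsb*, *Dars*, *Eprs*, *Nars2* and *Yars2*.

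Among 15 genes of tRNA charging and delivery outside the list, which include editing enzymes, the mitochondrial amidotransferase and the elongation factors that carry charged transfer RNA to the ribosome, 5 were called in at least 1 list (background 19.7%) and 0 in all 3 *Sirt7*-/- lists (background 5.09%). The 3 called in a WT list were *Eef1a1*, *Eef1d* and *Dtd1*, all in WT replicate 2. *Eef1d*, a subunit of the exchange factor that recharges eEF1A, had ranks of 72 and 15 in *Sirt7*-/- replicates 3 and 4 and 226 in WT replicate 2. *Eef1a1*, the elongation factor itself, had ranks of 1639 and 1879 in *Sirt7*-/- replicates 2 and 3 and 297 in WT replicate 2. *Dtd1*, which removes D-amino acids from transfer RNA, had a single peak at rank 854 of 906.

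The promoters of the list were also compared with all promoters of the same 300 bases, in features that the peak calls did not use. RefSeq promoter sequences matched 31 of the 41 genes. Their median GC was 58.0%, beside 56.3% over 17492 protein-coding genes, and their median ratio of observed to expected CpG was 0.734 beside 0.567. Listed genes with a peak (median GC 59.0%, CpG ratio 0.725) and without one (57.0% and 0.734) had values close to each other. On either strand, TGATGNAA, the CARE element bound by ATF4 with a C/EBP partner, was present at 5 of 31 genes (16.1%), beside 4.13% of all genes. These were *Aars*, *Gars*, *Iars*, *Tars* and *Yars*, so that 4 of 12 cytosolic and 0 of 14 mitochondrial genes held it. Of the 5, 2 (*Gars* and *Yars*) had a peak within 3 kb of the gene-table start in any list. The *Aars* sequence is built on the promoter-table start 6064 bp further in, where 2 *Sirt7*-/- lists had a peak. *Aars* is nevertheless counted here as a gene without a peak, by its gene-table start. The E-box CACGTG was present at 5 genes (16.1%), beside 8.91%, among them *Farsb* at position -39 and *Ears2* at position 22. The NRF1 motif GCGCATGC was held by 3 genes (9.68%, beside 3.94%), all mitochondrial and all without a peak (*Rars2*, *Vars2* and *Wars2*). The ETS motif CCGGAAGT was held by 4 genes (12.9%, beside 5.69%), the TATA letters TATAAA by 3 (9.68%, beside 14.8%) and the CRE letters TGACGTCA by 0 (beside 2.54%). Positions count from 1 at the start in the promoter table, with -1 the base before it, and no match overlapped one of another motif. These are matches of letters only. The CARE, E-box and ETS letters were held by genes with and without a peak, whereas the genes that held the NRF1 or TATA letters had no peak.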

How the data were processed

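Spermatogonia-enriched cells from 3 WT and 3 *Sirt7*-/- mice at Pnd 5 were profiled by H3K36ac ChIP-seq. The authors trimmed reads (Trim Galore 0.6.6), aligned them to mm10 (Bowtie2 2.4.4.1), filtered them to unique reads free of duplicates at a minimum mapping quality of 30 (SAMtools 1.19.2) and ran MACS2 2.2.5 on every sample with its input (broad mode, cutoff 0.1). Spike-in nucleosomes had been added, but the authors applied no spike-in factor because they found the barcode counts comparable among samples. The deposited lists give peak position, a score, the fold enrichment of ChIP over input as a ratio and, -log10 p and -log10 q as computed by the authors. The score was not used. Fold, p and q were used only within their own list. The lists give no depth. The study states clean reads per library before duplicates were removed, which were not used here, and how many passed the filters is not given in the sources used here.

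Gene starts came from the RefSeq table of GRCm38.p6, which has 1 start per gene and no strand. Strand was taken from the RefSeq promoter table (17492 protein-coding genes), otherwise from GENCODE vM39 by symbol or synonym and chromosome (3981), leaving 21473 of 21900 protein-coding genes. A match of synonyms that ignores case was added after *Nars* was found to lack a strand with peaks beside it. Peaks within 3 kb of a start were assigned to it and ranked by -log10 q. The background counts include the listed genes.

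Samples were grouped by their labels and compared with exact permutation tests over all 20 assignments, two-sided. Members and lists were chosen with earlier results of these data known. Every listed gene was counted, and 1 gene is not reported here by name. Genes called in all 3 *Sirt7*-/- lists or any WT list were given in full, and promoters were ranked for printing by the mean rank over the *Sirt7*-/- lists in which a gene was called. This reading of the rule, and the choice among those promoters, were made after the values were seen. The deviations of same-numbered samples had correlations of 0.029, 0.02 and 0.008, beside -0.028 to 0.009 for samples of unlike number. These small values do not settle whether the samples were paired. No pairing was used in the main tests. Alternatives were a -log10 q of at least 2, widths of at least 500 bp, equal numbers of peaks, a 1000 bp window, either gene end, a replicate block, each replicate left out and, chosen after seeing the data, promoter-table starts and a common minimum of -log10 p. On 2000 simulated starts, the assignment gave the same call as a slower search by the same rule at 100%. The tools were SciPy 1.17.1, NumPy 2.4.6 and pandas 2.3.3 under Python 3.11.15, with matplotlib 3.10.9.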

Additional observations from a re-analysis of the deposited data

How the results depend on the processing

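The mean number of called synthetase-list genes in *Sirt7*-/- samples, 10.3, became 8 with a -log10 q of at least 2, 6.33 with peaks of at least 500 bp, 12 with either gene end as the start, 0.667 with the 64 best peaks per sample and 6.33 with a common minimum -log10 p of 5.99 (added once the data had been seen). The WT mean, 4.33, became 2.33 with the q minimum, 1 with the width minimum and 0.667 with the 64 best peaks. The share of all protein-coding starts called changed as well. In *Sirt7*-/- samples it went from 11.6% to 7.59% (q), 5.56% (width), 12.3% (either end), 0.304% (64 peaks) and 6.45% (common p). In WT samples it went from 2.02% to 1.13% (q), 0.609% (width) and 0.331% (64 peaks). The 2 genes called in all 3 *Sirt7*-/- and no WT lists became 4, 1, 0 and 1 with the q, width, 64-peak and common p alternatives. The 4 mitochondrial genes called in at least 2 *Sirt7*-/- lists became 2, 2, 0 and 2 in the same order, and 5 with either gene end. The 4 cytosolic genes became 4, 3, 0 and 3 in that order. They became 3 with the 1000 bp window and 5 with either gene end or with promoter-table starts. The difference in called protein-coding starts, 2049, became -5.67 with 64 peaks (exact permutation test, two-sided, p = 0.2). Equal lists of 64 peaks nearly fix the number of called starts, so this setting cannot test the genotype difference. The difference in median midpoint, -87.7 bp, reversed to 13.3 bp with the q minimum (exact permutation test, p = 0.8). The cause of these changes was not tested.

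With each replicate left out in turn, the *Sirt7*-/- mean ranged from 9.5 to 11, the WT mean from 2.5 to 6, the genes in all *Sirt7*-/- and no WT lists from 2 to 5 (5 without WT replicate 2), the mitochondrial count from 2 to 3 (2 without *Sirt7*-/- replicate 2), the difference in starts from 1866 to 2303, and the midpoint difference from -147 to 1.58 bp (1.58 without *Sirt7*-/- replicate 4). The cytosolic count was 4 each time. With a replicate block the difference in starts was 2049 (exact sign-flip test, two-sided, p = 0.25, the smallest that 3 pairs allow).

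Across the alternatives that kept all samples, the share of the list was 2.14 to 5.34 times the background in *Sirt7*-/- samples. In WT samples it was 4.01 to 5.54 times the background. The *Sirt7*-/- value of 5.34 came from equal numbers of peaks per list, where only *Farsb* and *Fars2* were called, each in 1 *Sirt7*-/- sample. The highest *Sirt7*-/- value of the other alternatives was 2.78. The list was chosen by peak calls of these samples, so these ratios cannot test an excess over the background. How many reads passed the filters is not given in the sources used here, which limits the precision of every count.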
